A study of Mus musculus with 4 samples.

Results

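Axon guidance ligands and receptors were followed in the capped RNA of lesional mouse facial skin. Members were chosen by a rule on gene symbols that uses no values, though with earlier results of these data known. It takes the semaphorins of classes 3 to 7, plexins, neuropilins, ephrins, Eph receptors, Slits, Robos, netrins and Unc5 receptors. Of 17819 gene symbols in the deposited table, 58 met this rule, in 15 families. All 58 were among the 17034 genes kept for analysis and had at least 3 tags in each of the 4 libraries. A mean of at least 1 CPM (the tags of a gene scaled to a common library total) was needed for the test of spread, and 53 members were among the 14730 genes that reached it. Plxnb3, Slit1, Sema6b, Sema4f and Efnb3 did not.

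The samples were 4 skins, libraries 1 to 4, and the labels place them in 1 group: lesional facial skin of C57BL/6 mice, taken on postnatal day 28. The genotype of all 4 is written Nectin-cre(+);Ikk2FL/FL;Postn-/-. These mice carry FADS, a facial dermatitis with scratching. A Cre transgene, whose promoter the labels spell Nectin, acts on floxed alleles of Ikk2, a kinase of the NF-kB pathway, and Postn, the gene of the matrix protein periostin, is disrupted. The labels do not say in which cells Cre acts. No group without these alleles was analysed here, so the values do not show what the lesion or the genotype did to any gene. The labels do not say whether the skins came from 4 animals, nor what the sample codes mean, whose first part libraries 1 and 2 have in common, as do libraries 3 and 4. P-values therefore speak of nothing but the scatter among these samples, and that scatter may be technical.

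CAGE (cap analysis of gene expression) counts 1 tag per capped 5′ end, so levels of different genes compare without a correction for transcript length, and the position of a tag marks a transcription start. Totals over all deposited entries were 17630119 to 18823630 tags, and 1 tag was worth 0.0531 to 0.0567 CPM. A cluster listed under several genes counts more than once in these totals. Distinct clusters held 16492915 to 17691558 tags. All 7 keratinocyte markers were present, at a summed 7368, 6327, 9553 and 9017 CPM in libraries 1 to 4. Libraries 2 and 4 stood apart by gland transcripts: a list of 6 salivary and other gland genes summed to 14.1, 31740, 14.5 and 4715 CPM in libraries 1 to 4. Of 13 cell type lists, 8 had a higher summed CPM in both libraries 3 and 4 than in libraries 1 and 2. In CPM with no further scaling, as here, 45.6% of all tested genes lay that way and 11.5% the reverse. Among the 8 were keratinocyte, fibroblast (7 of 7 listed genes analysed, at 3705, 3291, 6239 and 5517 CPM), skeletal muscle (8 of 8 analysed, at 3003, 2202, 3645 and 5513 CPM) and smooth muscle genes (8 of 8 analysed, at 314, 286, 404 and 470 CPM). In the keratinocyte list Krt1, Krt10, Trp63 and Dsg3 went with the sum. Krt5 and Krt14 were lower in library 4 than in library 1, and Ivl stood at 264.2, 269.5, 207.1 and 149.5 CPM. Actn3 of skeletal muscle and Tagln of smooth muscle were lower in library 3 than in library 1. Hair shaft genes (5 of 6 listed genes analysed, at 3713, 3366, 967 and 669 CPM) and melanocyte genes (6 of 6 analysed, at 372, 350, 259 and 270 CPM) were higher in sum in both libraries 1 and 2. Mitf, of the melanocyte list, was highest in library 3. Of 15 neuron markers 3 were analysed: Tubb3 at 22.0 ± 1.49, Stmn2 at 0.986 ± 0.518 and Calca at 0.222 ± 0.0840 CPM (SD, n = 4). In whole tissue, fewer cells of a type and less RNA per cell cannot be told apart.

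As background, guidance cues steer growing axons, vessels and migrating cells by attraction or repulsion. Semaphorins act through plexins, and most secreted class 3 semaphorins need a neuropilin as co-receptor. Ephrins are bound to membranes and signal with Eph receptor kinases in both directions between touching cells, Slits repel through Robo receptors, and netrins act through Dcc, Neo1 and Unc5 receptors. In skin, these proteins are also made by keratinocytes, fibroblasts, endothelium and Schwann cells, and Sema3a is known as a repellent of sensory nerve fibres.

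Together the 58 genes took 2471, 2256, 2321 and 2465 CPM in libraries 1 to 4. The mean was 2378 ± 107 CPM, or 0.238% of the totals over all deposited entries. Plexins gave the highest family sum, 442 ± 32.7 CPM, and Sema5, with its single member, the lowest, 26.6 ± 4.80 CPM (SD, n = 4). Efnb2, which encodes ephrin-B2, was the most abundant gene at 159 ± 3.72 CPM, rank 925, and the only member among the 1000 highest genes. Plxna2, Unc5b, Nrp2, Efna3 and Ephb6 also exceeded 100 CPM. A further 36 members lay from 10 to 100 CPM, 11 from 1 to 10 CPM and 5 under 1 CPM. The median of the 53 tested members was 26.7 CPM, against 23.02 CPM over all tested genes.

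**Figure D1:**
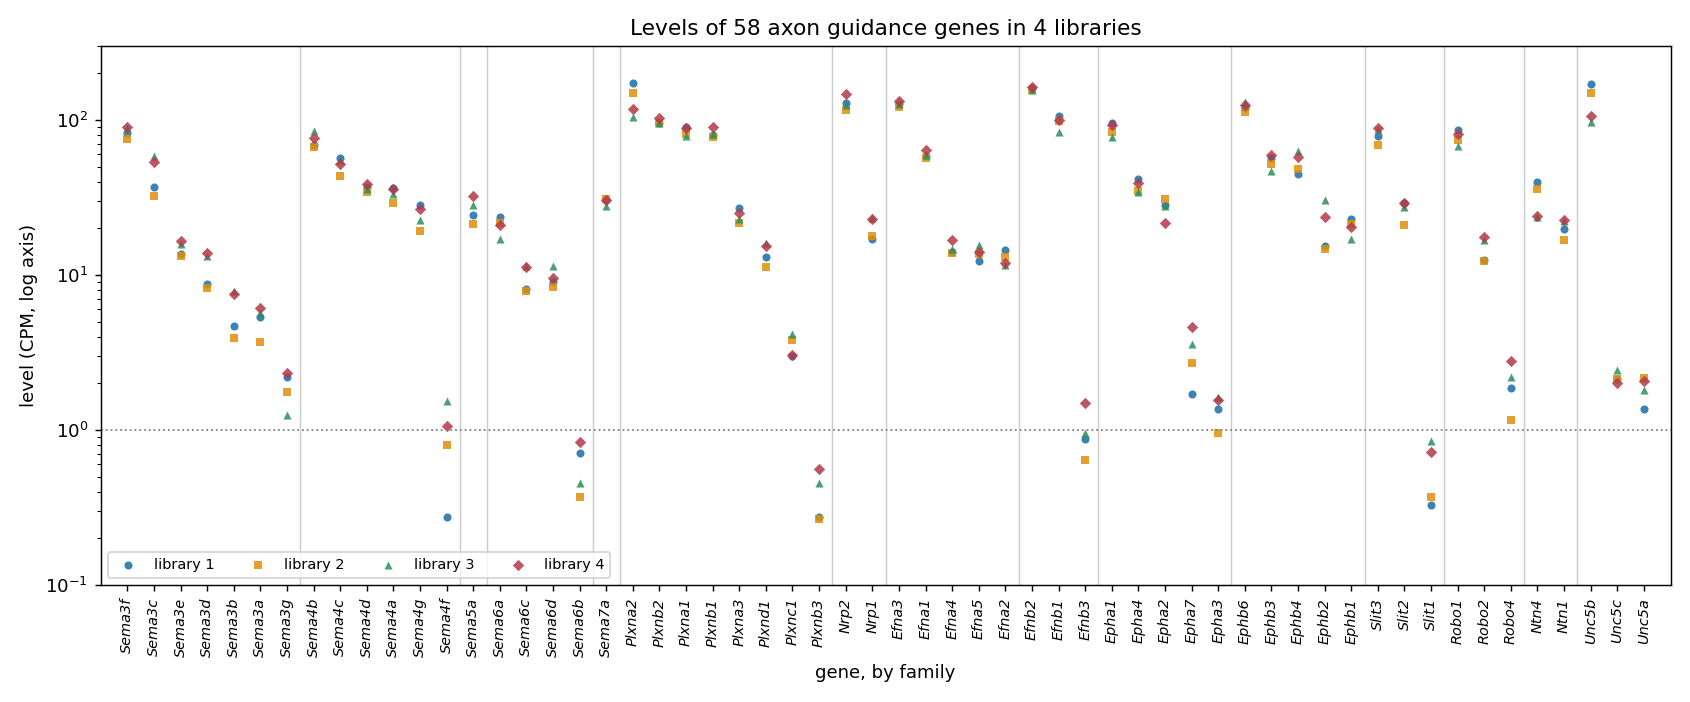
Level of each of the 58 genes in each library (CPM, log axis; 1 point per library), ordered by family and by mean within the family, with grey lines between families and a dotted line at 1 CPM. Means run from 0.388 CPM for Plxnb3 to 159 CPM for Efnb2, and the 4 libraries of most genes lie close together beside these differences.

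The secreted class 3 semaphorins were led by Sema3f and Sema3c. Sema3f, a repellent that acts mainly through Nrp2, stood at 82.7, 75.7, 88.5 and 90.02 CPM. Sema3c, which acts on vessels, neural crest and nerve fibres, stood at 36.96, 32.1, 58.6 and 53.9 CPM, lower in libraries 1 and 2 than in libraries 3 and 4, with no overlap. In CPM with no further scaling, as here, 45.6% of all tested genes lay that way. Sema3e, which binds Plxnd1 without a neuropilin, stood at 13.6, 13.3, 15.9 and 16.6 CPM, and the 4 libraries lay close together. Sema3d and Sema3b were also lower in libraries 1 and 2 than in libraries 3 and 4, at lower levels than Sema3c. The same held for Sema3f, Sema3e and Sema3a. Sema3d stood at 8.75, 8.29, 13.2 and 13.8 CPM. Sema3b stood at 4.68, 3.93, 7.94 and 7.58 CPM. Sema3a, the nerve repellent named above, was far below Sema3f, at 5.34, 3.72, 5.67 and 6.13 CPM, and Sema3g was the lowest of the class, at 1.25 to 2.34 CPM.

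The most used start of Sema3c is shown because this gene was among the 5 with an unadjusted p under 0.05 in the test of spread given below. The window is the RefSeq promoter on GRCm38.p6 (250 bases before to 50 after the annotated start), chr5:17574566-17574865, plus strand, written 5′ to 3′, and capitals mark the bases inside the deposited tag cluster, which held 89.4% of the gene's tags. Cluster ends are uncertain by 1 base here and in all windows below. Capitals mark only the cluster described, and other clusters of a gene that fall in its window are in lower case.
Sema3c: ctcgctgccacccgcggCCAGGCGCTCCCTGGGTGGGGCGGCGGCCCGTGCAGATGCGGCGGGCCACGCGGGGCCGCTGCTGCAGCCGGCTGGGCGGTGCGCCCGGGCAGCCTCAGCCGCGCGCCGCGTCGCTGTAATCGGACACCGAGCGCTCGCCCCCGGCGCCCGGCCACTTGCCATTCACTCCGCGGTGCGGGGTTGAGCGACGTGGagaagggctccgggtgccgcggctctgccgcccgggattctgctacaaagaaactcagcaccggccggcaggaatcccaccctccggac

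Class 4 semaphorins, which span the membrane, gave 221 ± 18.1 CPM in sum. Sema4b led with 68.9, 67.04, 84.2 and 75.9 CPM, followed by Sema4c, a ligand of Plxnb2, with 56.6, 43.5, 55.4 and 51.7 CPM. Sema4d, which activates Plxnb1 and is also known from T cells, stood at 36.96, 34.4, 35.8 and 38.8 CPM and was nearly level over the libraries. Sema4a, known from immune cells as well, was almost equal to Sema4d at 36.4, 29.1, 33.2 and 35.6 CPM, and lay below it in every library, though not in libraries 1 and 3 with only the most used cluster of each counted. Sema4g stood at 28.3, 19.1, 22.7 and 26.5 CPM. Sema4f was rare, with 5, 15, 27 and 19 tags, and library 1 held fewest.

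Beyond class 4, membrane semaphorins were of moderate level. Sema5a, which carries thrombospondin repeats and acts through Plxna1 and Plxna3 in the mouse retina, stood at 24.3, 21.5, 28.4 and 32.4 CPM. Sema6a, a membrane ligand of Plxna2 and Plxna4, stood at 23.7, 21.8, 17.13 and 21.1 CPM. Sema6c stood at 8.14, 7.92, 11.4 and 11.3 CPM, and Sema6d, a ligand of Plxna1, at 9.02, 8.39, 11.4 and 9.53 CPM. Sema6a was lowest in library 3, where Sema6d was highest. Sema6b was rare at 0.372 to 0.836 CPM. Sema7a, anchored to the membrane by a lipid and known to bind Plxnc1 and integrins, stood at 30.6, 30.8, 28.02 and 30.6 CPM.

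Receptors of semaphorins were led by the A and B plexins and by Nrp2. The 19 semaphorins gave 487 ± 47.5 CPM in sum and the 10 plexins and neuropilins 592 ± 35.9 CPM, a ratio of 0.7604, 0.738, 0.946 and 0.857 in libraries 1 to 4. Plxna2, a receptor that class 6 semaphorins bind directly, stood at 173, 149, 105 and 118 CPM, higher in libraries 1 and 2 than in libraries 3 and 4. On this scale 11.5% of all tested genes lay that way. Plxnb2 stood at 95.5, 95.7, 95.1 and 103 CPM and Plxna1 at 90.3, 80.9, 78.5 and 88.6 CPM, with little spread. Plxnb1, the receptor of Sema4d, stood at 80.1, 77.5, 80.6 and 89.9 CPM. The remaining plexins were lower: Plxna3 at 21.6 to 27.1 CPM, Plxnd1, the receptor of Sema3e, at 12.98, 11.2, 16.2 and 15.4 CPM, and Plxnc1, the receptor of Sema7a, at 3.02, 3.83, 4.14 and 3.07 CPM. Plxnb3 was close to the floor of 3 tags, with 5, 5, 8 and 10 tags.

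Nrp2, a co-receptor for Sema3f and Sema3c, stood at 129, 116, 125 and 146 CPM, and Nrp1, a co-receptor for Sema3a and for Vegfa, at 17, 17.9, 23.5 and 23.1 CPM. Nrp1 was lower in every library, at 0.157 of Nrp2 (log2 -2.67 ± 0.21, SD, n = 4). The deposited table lists every Nrp1 cluster under the microRNA gene Mir1903 as well and cannot tell whose tags they are, so the Nrp1 level is uncertain to that extent.

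Plxna2 is shown next for the same reason as Sema3c. Its window on GRCm38.p6 is chr1:194619579-194619878, plus strand, and the cluster in capitals, which runs on past the window, held 98.6% of its tags.
Plxna2: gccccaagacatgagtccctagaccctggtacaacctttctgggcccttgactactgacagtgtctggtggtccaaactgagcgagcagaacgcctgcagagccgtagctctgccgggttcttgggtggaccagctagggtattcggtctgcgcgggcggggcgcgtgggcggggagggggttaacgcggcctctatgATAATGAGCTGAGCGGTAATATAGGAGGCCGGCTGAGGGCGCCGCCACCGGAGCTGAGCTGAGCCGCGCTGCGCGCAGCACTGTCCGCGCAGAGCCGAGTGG

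Ephrins and Eph receptors were close in sum. The 8 ephrins gave 485 ± 16.5 CPM and the 10 Eph receptors 426 ± 18.1 CPM, and the ratio of receptors to ephrins was 0.865, 0.849, 0.9198 and 0.885 in libraries 1 to 4. Efna3 was the highest ephrin of class A, at 127, 121, 127 and 132 CPM. Efna1, the usual partner of Epha2 in epithelia, stood at 58.7, 56.7, 58.99 and 63.5 CPM, Efna4 at 14.1, 13.8, 14.7 and 16.8 CPM and Efna5 at 12.3, 13.7, 15.6 and 14.1 CPM. Efna2 was of like level, at 11.7 to 14.6 CPM. Among class B ephrins, Efnb2, a marker of arteries, stood at 161, 156, 156 and 164 CPM, and Efnb1 at 106, 98.1, 83.7 and 100.1 CPM. The highest and lowest library of Efnb2 differed by a factor of 1.05. Efnb3 was rare at 0.8801, 0.637, 0.964 and 1.505 CPM.

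Epha1, an epithelial receptor, led its class at 95.5, 83.99, 77.2 and 92.9 CPM. Epha4, which binds ephrins of both classes, stood at 41.4, 34.9, 34.4 and 39.2 CPM and Epha2 at 28.3, 30.8, 27.7 and 21.6 CPM, so that Epha2 was below both in every library. Epha3 and Epha7 were low, at 0.956 to 1.65 and 1.70 to 4.63 CPM. Ephb6, a receptor without kinase activity, was the highest Eph receptor at 119, 112, 129.6 and 124 CPM. Within class B, Ephb3 and Ephb4 were next, at 56.5, 52.01, 47.1 and 59.4 CPM and 44.7, 48.6, 62.6 and 57.8 CPM. Ephb4 is the receptor that marks veins and pairs with Efnb2. Ephb1 stood at 17.02 to 23.1 CPM. Ephb2 stood at 15.3, 14.6, 30.3 and 23.7 CPM, and its libraries 1 and 2 lay below libraries 3 and 4 without overlap. So did those of 45.6% of all tested genes on this scale.

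The single tag cluster of Ephb2, the only one listed for the gene, lies partly in this window of GRCm38.p6, chr4:136835963-136836262, minus strand. The gene was also among those 5.
Ephb2: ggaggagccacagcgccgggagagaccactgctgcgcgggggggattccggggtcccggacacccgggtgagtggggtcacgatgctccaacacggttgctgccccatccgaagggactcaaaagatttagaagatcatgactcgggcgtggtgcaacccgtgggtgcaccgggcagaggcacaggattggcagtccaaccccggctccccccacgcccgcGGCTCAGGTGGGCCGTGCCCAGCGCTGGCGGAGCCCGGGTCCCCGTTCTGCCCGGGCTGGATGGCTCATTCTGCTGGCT

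Slit3 was the main Slit, at 79.2, 68.6, 87.8 and 89.3 CPM, against 29.1, 20.9, 27.5 and 29.2 CPM for Slit2. Slit1, best known from the nervous system, held 6, 7, 15 and 13 tags, and the ratio of Slit3 to Slit1 was 146 (log2 7.19 ± 0.52, SD, n = 4). Among the receptors, Robo1 stood at 85.5, 74.1, 67.95 and 81.3 CPM and Robo2 at 12.5, 12.4, 16.9 and 17.4 CPM. Robo4, a receptor of endothelium, stood at 1.87, 1.17, 2.21 and 2.79 CPM, beside 54.6, 54.7, 83.6 and 79.6 CPM for 8 blood endothelial markers in sum. Robo receptors and Slits summed to 94.0 ± 7.75 and 109 ± 13.2 CPM. Robo3 was not analysed here.

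The 3 Unc5 receptors gave 135 ± 35.4 CPM and the 2 netrins 51.3 ± 6.25 CPM in sum, a ratio of 2.95, 2.899, 2.19 and 2.35 in libraries 1 to 4, and nearly all of the receptor sum was Unc5b. Unc5b, a repulsive netrin receptor also known from vessels, stood at 172, 149, 96.5 and 106 CPM, against 2.15, 2.12, 2.44 and 2.01 CPM for Unc5c and 1.38, 2.18, 1.81 and 2.06 CPM for Unc5a. Ntn4, a netrin of basement membranes that binds laminins, stood at 39.7, 35.97, 23.8 and 24.1 CPM, and Ntn1, the classical netrin, at 19.8, 16.8, 22.3 and 22.5 CPM. Unc5b and Ntn4 were higher in libraries 1 and 2 than in libraries 3 and 4, as were 11.5% of all tested genes on this scale. Ntn1 lay below Ntn4 in every library, by log2 -1.01, -1.09, -0.10 and -0.10. With only the most used cluster of each gene counted, Ntn1 had more tags than Ntn4 in libraries 3 and 4. Dcc, the attractive netrin receptor, was not analysed here, and Neo1, its relative, stood at 99.1, 97.9, 89.6 and 109.9 CPM.

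Unc5b and Ntn4 had the smallest unadjusted p-values in the test of spread given below, and both lie on chromosome 10. For Unc5b the window is chr10:60831532-60831831 on the minus strand, and its cluster, part of which lies past the window, held 99.2% of tags. For Ntn4 it is chr10:93640799-93641098 on the plus strand, with 79.9% of tags in the cluster in capitals (GRCm38.p6 for both).
Unc5b: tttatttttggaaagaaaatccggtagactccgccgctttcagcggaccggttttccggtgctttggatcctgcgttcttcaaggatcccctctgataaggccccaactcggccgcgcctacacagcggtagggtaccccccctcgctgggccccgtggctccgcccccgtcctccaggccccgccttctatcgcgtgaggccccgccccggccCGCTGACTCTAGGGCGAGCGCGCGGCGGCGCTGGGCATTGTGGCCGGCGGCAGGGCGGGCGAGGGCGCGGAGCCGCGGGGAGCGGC
Ntn4: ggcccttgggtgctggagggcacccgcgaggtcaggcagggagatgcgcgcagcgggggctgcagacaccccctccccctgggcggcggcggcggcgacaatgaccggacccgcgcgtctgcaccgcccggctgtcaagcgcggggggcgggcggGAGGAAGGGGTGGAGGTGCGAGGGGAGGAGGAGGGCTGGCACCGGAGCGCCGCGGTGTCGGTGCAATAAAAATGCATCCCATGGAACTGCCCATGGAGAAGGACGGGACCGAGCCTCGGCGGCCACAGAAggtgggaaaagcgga

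Ratios between listed pairs of genes were taken within each library, with 0.5 tags added to each gene. Both genes were present for 28 of 31 pairs; those with Sema5b, Plxna4 or Dcc were not analysed here. Each of the 28 lay on 1 side of 1 in 4 of 4 libraries. With 4 libraries the exact two-sided sign-flip test cannot go below p = 0.125, which is its value for each of these 28, so none can pass 0.05.

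In the listed pairs within families, the order of levels was the same in every library. Genes not paired in the list could change order. Ephb3 was above Ephb4 in library 1 (56.5 and 44.7 CPM) and below it in library 3 (47.1 and 62.6 CPM). Sema3f was 16.3 times Sema3a (log2 -4.03 ± 0.21 for Sema3a over Sema3f) and Sema3c was 8.54 times Sema3a (log2 3.10 ± 0.24, SD, n = 4). Robo1 was 5.26 times Robo2 (log2 2.39 ± 0.35) and 39.6 times Robo4 (log2 -5.31 ± 0.52 for Robo4 over Robo1). Slit3 was 3.05 times Slit2 (log2 -1.61 ± 0.12 for Slit2 over Slit3), and Unc5b was 57.8 times Unc5c (log2 5.85 ± 0.45) and 68.4 times Unc5a (log2 6.10 ± 0.59). Plxnb2 over Plxnb1 was the narrowest of the 28 ratios, at log2 0.25 ± 0.04. Plxnd1 was 0.142 of Plxnb2 (log2 -2.81 ± 0.23). Plxna2 over Plxna1 was log2 0.66 ± 0.29, and Sema4b over Sema4c 0.52 ± 0.16. Sema4a over Sema4d was closest to 1 among the 28, at log2 -0.12 ± 0.09.

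Ligands and their receptors differed in level as well. Sema7a was 8.55 times its receptor Plxnc1 (log2 3.10 ± 0.28), Efna1 was 2.21 times Epha2 (log2 1.15 ± 0.29), and Efnb2 was 3.01 times Ephb4 (log2 1.59 ± 0.23). The opposite order held for Slit2 over Robo1, at log2 -1.54 ± 0.22, and Ntn1 over Unc5b, at log2 -2.65 ± 0.56. Within the Eph receptors, Epha2 over Epha1 was log2 -1.70 ± 0.30 and Epha2 over Epha4 -0.48 ± 0.30. Ephb4 over Ephb2 was log2 1.40 ± 0.30, Ephb3 over Ephb2 1.42 ± 0.58, and Ephb6 over Ephb3 1.18 ± 0.19. Efna1 over Efna5 was log2 2.10 ± 0.15, Efnb1 over Efnb2 -0.72 ± 0.13, and Sema6a over Sema6d 1.12 ± 0.38. Levels of RNA do not give levels of protein on the same cell.

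**Figure D2:**
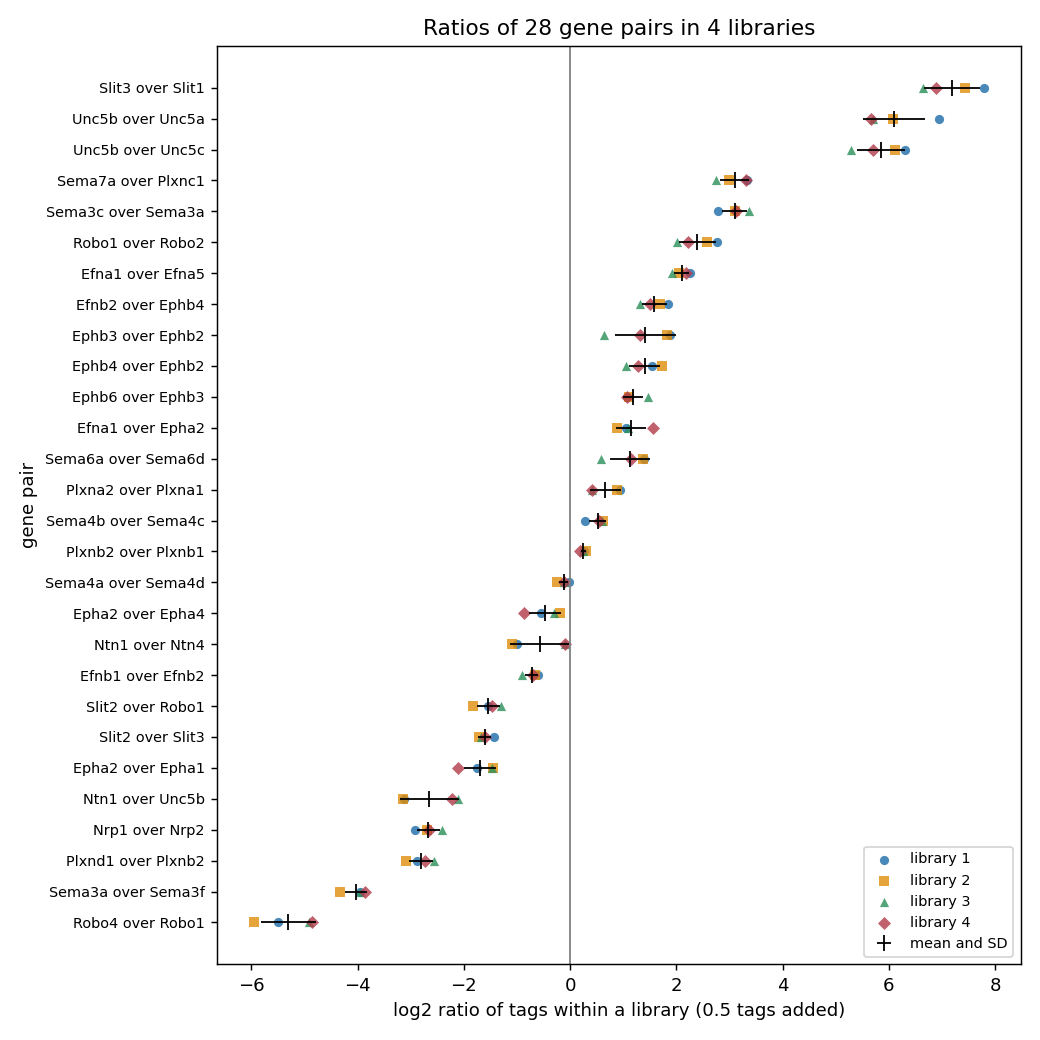
Log2 ratio of tags of the first gene over the second for 28 pairs (points: libraries; cross and bar: mean and SD, n = 4; grey line: equal levels). All 28 pairs lie on 1 side of the line in all 4 libraries, from -5.31 for Robo4 over Robo1 to 7.19 for Slit3 over Slit1.

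The spread of each member over the libraries was tested in limma against that of genes of like level, on log2(CPM + 1), over all 14730 genes. None of the 53 members was called at a Benjamini-Hochberg adjusted p of 0.05, against 34 of all genes, 0.231%. On the recovered tags, the edgeR test also called 0 members, against 2.38% of all genes. DESeq2 gave no test with a p-value here, only a flag for genes whose spread stands far above that of genes of like level. It marked 0 members, against 1.76% of all genes. At an unadjusted p under 0.05 there were 5 members, 9.43% of those tested, beside 6.29% of all genes. The median range over the libraries was 0.36 on the log2(CPM + 1) scale for members and 0.28 for all tested genes.

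By limma's test across all genes, the 5 were Unc5b (adjusted p = 0.44), Ntn4 (adjusted p = 0.546), Plxna2 (adjusted p = 0.55), Ephb2 (adjusted p = 0.644) and Sema3c (adjusted p = 0.664). Their ranges on the log2(CPM + 1) scale were 0.89, 0.78, 0.79, 0.88 and 0.70. Epha7 had the widest range, 0.995, from 31, 51, 63 and 83 tags, and did not pass either (limma unadjusted p = 0.117). Ephb6 had the narrowest, 0.07.

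**Figure D3:**
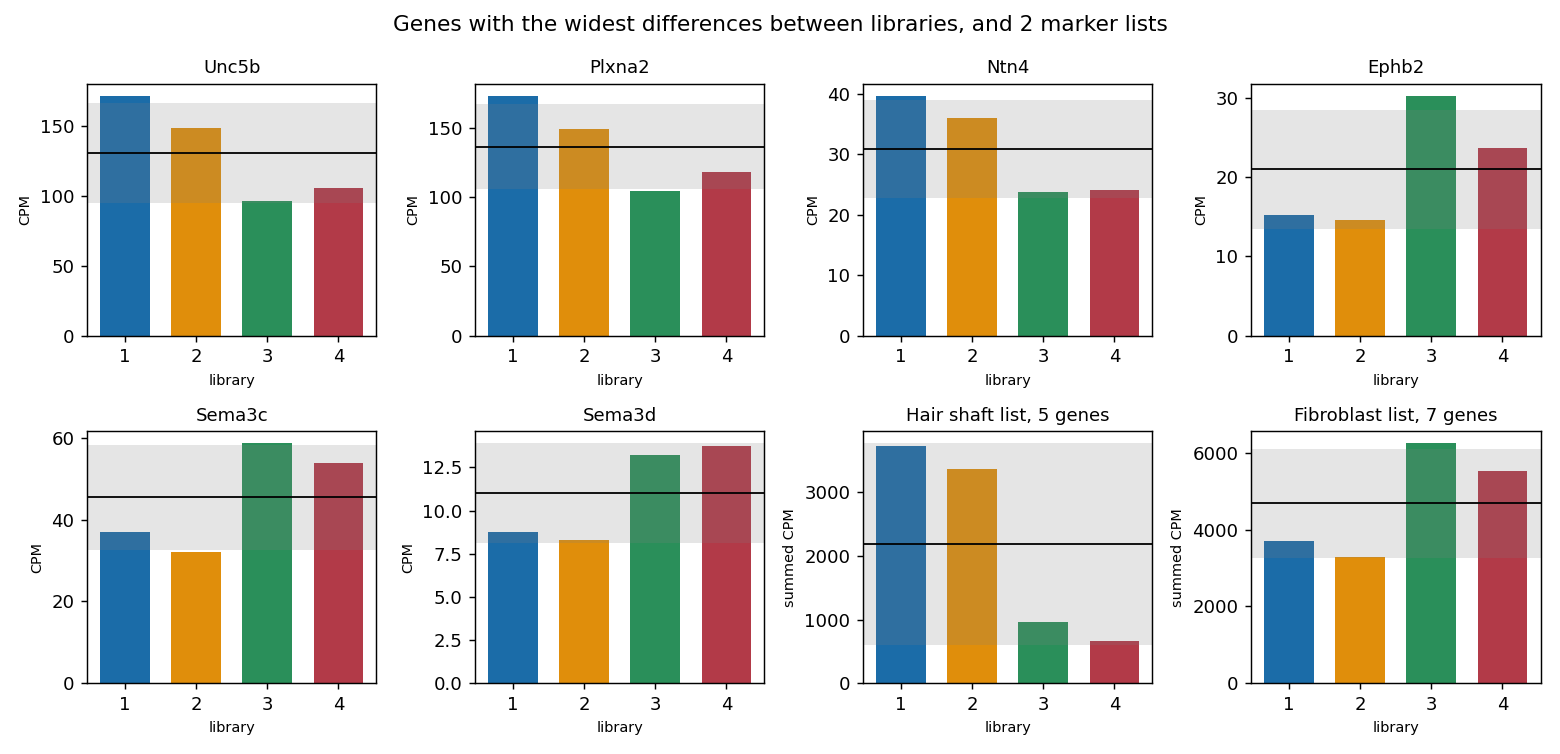
Level of the 5 genes with an unadjusted p under 0.05, and of Sema3d, in libraries 1 to 4, with the summed level of the hair shaft and fibroblast lists (bars: CPM; line and grey band: mean ± SD, n = 4). Unc5b, Plxna2, Ntn4 and the hair shaft list are higher in libraries 1 and 2, while Ephb2, Sema3c, Sema3d and the fibroblast list are higher in libraries 3 and 4.

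Libraries 1 and 2 were then set beside libraries 3 and 4, following the first part of their codes, a split that was looked at after the values were seen. On the TMM scale, libraries 1 and 2 both lay above libraries 3 and 4 in 14 tested members, 26.4%, beside a background of 27.9% of all genes. The reverse held for 20 members, 37.7%, beside 26.8%. In all 34 of 53 members were apart by code, where 54.7% of all genes were. Without TMM scaling the counts were 8 members (background 11.5%) and 26 members (background 45.6%).

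Of the class 3 semaphorins, 6 of 7, all but Sema3g, were higher in libraries 3 and 4 on the TMM scale. The share was 37.7% of all tested members and 26.8% of all genes. This count was made for no other family and rests on the same split, looked at after the values were seen. Some gaps were narrow. Sema3a stood at 5.39 CPM in library 1 and 5.47 CPM in library 3, TMM-scaled. TMM-scaled means in libraries 1 and 2 and in libraries 3 and 4 were 35.9 and 54.0 CPM for Sema3c, 8.86 and 12.96 CPM for Sema3d, and 4.47 and 7.46 CPM for Sema3b. Sema3f differed least of the 6, at 82.4 CPM in libraries 1 and 2 and 85.8 CPM in libraries 3 and 4. The members higher in libraries 1 and 2 included Unc5b (167 CPM in libraries 1 and 2 and 97.2 CPM in libraries 3 and 4), Ntn4 (39.4 CPM in libraries 1 and 2 and 23.04 CPM in libraries 3 and 4) and Plxna2 (168 CPM in libraries 1 and 2 and 107 CPM in libraries 3 and 4). Efnb1, Epha1, Robo1 and Ephb1 were among them too. In summed CPM without TMM scaling, and so not on the scale of the means just given, 8 of the 13 cell type lists were higher in libraries 3 and 4. Of all genes, 45.6% were on that scale. The lists were keratinocyte, fibroblast, skeletal muscle, smooth muscle and blood endothelium, as given above, and Schwann cell (216, 230, 303 and 334 CPM), lymph endothelium (45.1, 36.8, 60.1 and 49.3 CPM) and T cell (8.53, 6.32, 13.4 and 14.3 CPM). The hair shaft and melanocyte lists were higher in libraries 1 and 2, where 11.5% of all genes were. Such sums did not hold for every listed gene, as given above for the keratinocyte, muscle and melanocyte lists. Prox1, Lyve1 and Flt4 of the lymph endothelium list were lower in library 4 than in library 1 or 2. So were Sox10 of the Schwann cell list and Cd3d of the T cell list. Lck, also of the T cell list, was lower in library 3 than in library 1. Of 7 listed T cell genes, 4 were analysed. The part of these cell types in the members' values was not tested.

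**Figure D4:**
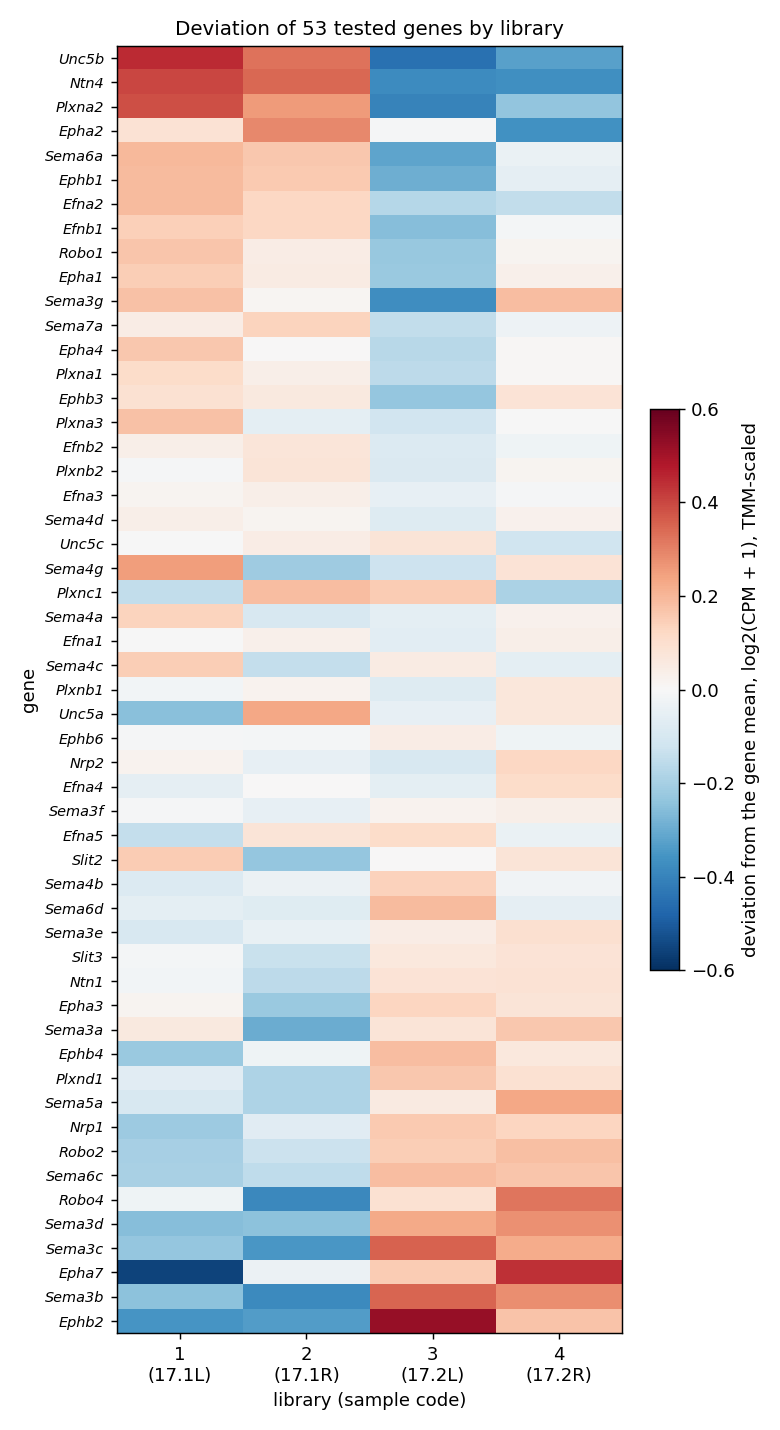
Deviation of each of the 53 tested genes from its own mean in each library (colour: log2(CPM + 1), TMM-scaled; columns: libraries 1 to 4 with their sample codes), ordered by libraries 1 and 2 minus libraries 3 and 4. Unc5b, Ntn4 and Plxna2 at the top are high in libraries 1 and 2. Ephb2, Sema3b, Epha7 and Sema3c at the bottom are high in libraries 3 and 4, and most genes between them are pale.

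By single library, the highest TMM-scaled value fell in library 1 for 18 tested members, in library 2 for 7, in library 3 for 13 and in library 4 for 15. These are 34.0%, 13.2%, 24.5% and 28.3%, beside 25.0%, 24.0%, 27.9% and 23.1% of all genes.

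Start sites were read from 254 tag clusters of the 58 genes. The most used cluster of 50 members spans an annotated start in GENCODE M21, and that of 57 lies within 500 bases of one. A single cluster was listed for 18 members. In 17 tested members, 32.1%, at least 2 clusters each held 10% of the gene's tags and 1 CPM, beside 17.5% of all tested genes. Shares below are percentages of a gene's tags within a library, and distances run between cluster midpoints.

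Some members used starts far apart. By a measure added after the values were seen, at least 10% of tags lay over 1000 bases from the most used cluster in 5 tested members, 9.43%, beside 8.04% of all genes. Sema3a had the widest spacing: a cluster 273848 bases downstream of the main one held 27.8, 28.6, 27.00 and 27.3% of its tags in libraries 1 to 4. In Sema4d a cluster 37025 bases downstream held 15.9, 15.9, 18.9 and 14.4%, highest in library 3. Sema3b had its second start 3979 bases upstream, with 23.5, 27.03, 27.9 and 26.5%. Each of these 3 second clusters spans or follows within 64 bases an annotated start, and the annotated coding starts of each gene lie downstream of both clusters.

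In Plxnb2 a cluster only 8 bases wide, 9623 bases downstream in exon 2 and outside the coding part, held 17.96, 18.1, 17.12 and 17.13%. It spans no annotated start, and the nearest lies 428 bases away. Whether it marks a promoter was not tested. Another cluster, 262 bases upstream of the main start, held 15.2, 16.4, 16.2 and 15.7%. In Sema4b the clusters at 11721 and 11537 bases downstream held 17.9, 17.12, 16.5 and 17.8% and 10.6, 10.4, 9.36 and 9.77%. The distant tags of Sema3a made up 36.7 ± 3.73% (SD, n = 4), and among them a lesser cluster held 9.28, 0, 5 and 6.36% (SD 3.88 percentage points).

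The upstream and downstream starts of Sema4b are shown because each has a RefSeq window of its own on GRCm38.p6. The first, chr7:80186620-80186919, plus strand, overlaps the cluster with 67.2, 68.7, 69.97 and 66.96% of tags in libraries 1 to 4, and the second, chr7:80198338-80198637, plus strand, holds the cluster with the next largest share. The second window also holds, in lower case, the cluster with 10.6, 10.4, 9.36 and 9.77% of tags and some smaller ones.
Sema4b upstream: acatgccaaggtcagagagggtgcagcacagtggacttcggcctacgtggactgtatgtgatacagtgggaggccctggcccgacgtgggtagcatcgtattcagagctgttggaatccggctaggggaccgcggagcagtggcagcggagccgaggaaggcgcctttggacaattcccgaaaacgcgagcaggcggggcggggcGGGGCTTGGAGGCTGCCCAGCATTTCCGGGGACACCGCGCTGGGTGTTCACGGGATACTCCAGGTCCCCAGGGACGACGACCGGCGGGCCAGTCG
Sema4b downstream: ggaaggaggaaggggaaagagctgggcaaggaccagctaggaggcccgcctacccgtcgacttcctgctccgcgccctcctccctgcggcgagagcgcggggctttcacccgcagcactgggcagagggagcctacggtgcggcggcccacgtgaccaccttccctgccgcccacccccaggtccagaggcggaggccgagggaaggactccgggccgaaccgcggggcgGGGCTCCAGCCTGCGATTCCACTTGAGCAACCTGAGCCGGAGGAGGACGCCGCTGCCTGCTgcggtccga

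**Figure D5:**
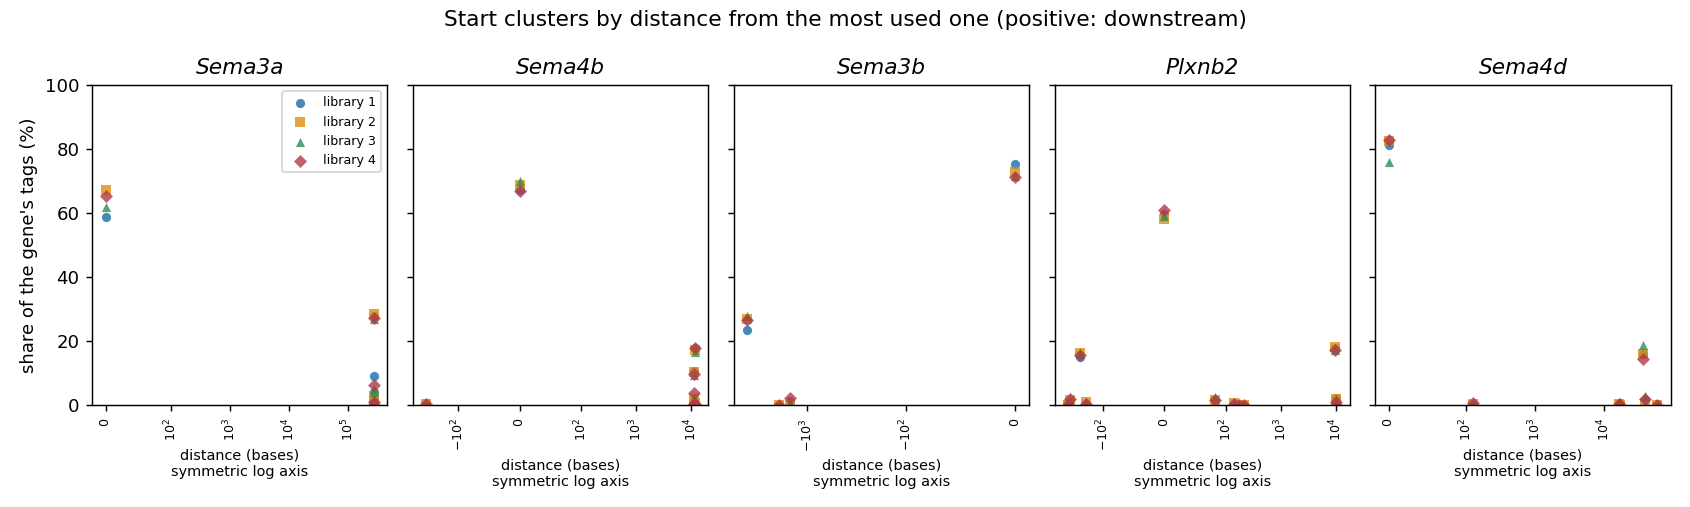
Share of a gene's tags in each of its start clusters (points: libraries 1 to 4) against the distance of the cluster from the most used one (bases, symmetric log axis, downstream positive), for the 5 genes with distant starts. The most used cluster holds 58.02% to 82.8% of tags in each library and the distant ones form separate groups of points.

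In the other multi-start genes the clusters of this size lay within 1000 bases of the most used one. Sema3d was split almost evenly, with 47.2, 44.9, 49.4 and 47.8% in the main cluster and 46.5, 44.9, 42.9 and 43.3% in a cluster 215 bases downstream. Efna5 had 3 clusters, with 48.2, 47.7, 52.00 and 47.6%, 26.3, 25.97, 18.2 and 27.8% and 11.6, 14.3, 17.4 and 13.1% of tags, all upstream of the annotated gene; the first was highest in library 3 and the second lowest there. Robo2 had a second cluster 259 bases upstream with 28.2, 28.3, 41.6 and 32.3%, and Sema6d one 711 bases upstream with 28.1, 24.7, 37.3 and 23.4%. In both genes library 3 gave the upstream cluster its highest share. Sema3e went the other way, with 34.3, 36.6, 23.2 and 31.6% in a cluster 211 bases upstream and the lowest share in library 3. Plxnb1 held 27.2, 26.2, 30.4 and 30.8% in a cluster 665 bases upstream.

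In the other 6 genes the second cluster held less. It took 11.8, 10.3, 10.4 and 11.4% in Robo1, 8.31, 10.3, 13.1 and 12.2% in Ntn4 and 16.1, 11.8, 9.12 and 9.39% in Plxnd1. Values were 12.02, 11.3, 14.7 and 11.3% in Slit3, 14.8, 12.4, 16.1 and 16.2% in Sema4c and 15.3, 13.6, 9 and 14.9% in Sema4g. With clusters within 100 bases of each other joined, 13 members still had at least 2 starts of this size.

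Promoter windows of RefSeq were matched by symbol for 51 members, and 47 had tags in a window. The window with most tags held at least 50% of the gene's tags in 27 of them. The median GC content of the 47 windows was 66.3%, beside 62.0% for 10355 tested genes and 52.7% for all 32851 windows, and the median ratio of observed to predicted CpG was 0.69, 0.778 and 0.384 in the same order. GGGCGG, on either strand, occurred in 36 of the 47 windows (76.6%), beside 67.6% of windows of tested genes and 35.7% of all windows. CCAAT, on either strand, occurred in 12 (25.5%, beside 38.3% and 37.4%), and TATAAA, on either strand, in 2 (4.26%, beside 8.04% and 13.6%), those of Efnb2 and Slit2. Of the windows printed above, GGGCGG occurred 4 times in that of Ntn4, 3 times in those of Unc5b and Sema3c, 2 times in those of Plxna2 and of both Sema4b starts, and not in that of Ephb2, which holds CCAAT 1 time, read on the opposite strand. A match is a description of the letters and not evidence of a bound factor.

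Members lay on 19 chromosomes. In 5 places, neighbours had most used starts less than 1 Mb apart, and these held 13 members. Sema4a, Efna1, Efna3 and Efna4 lie together on chromosome 3, Sema3d, Sema3a and Sema3e on chromosome 5, Ephb6 and Epha1 on chromosome 6, Sema3b and Sema3f on chromosome 9, and Plxnb3 and Plxna3 on the X chromosome. Some neighbours differed in level and others were closer: Efna3 and Efna4 averaged 127 and 14.8 CPM, Ephb6 and Epha1 121 and 87.4 CPM, Sema3d and Sema3e 11 and 14.9 CPM, and Sema3f and Sema3b, 104732 bases apart, averaged 84.2 and 6.03 CPM.

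Other genes of the pathway, from a list of 72 drawn up with earlier results of these data known, were read beside the members. Of these, 67 were analysed and 65 tested, and 0 were called by limma or edgeR or flagged by DESeq2. In limma 6 of the 65 had an unadjusted p under 0.05, beside 6.29% of all genes. The 6 were Farp2, Fyn, Dpysl2, Chn2, Arhgap39 and Vegfa. Fyn, a kinase downstream of Plxna receptors, stood at 96.8, 89.04, 63.2 and 64.5 CPM (limma unadjusted p = 0.0163, adjusted 0.558). Arhgap39, a Robo effector, stood at 48.5, 40.6, 31.1 and 30.7 CPM. Both were higher in libraries 1 and 2, as were Plxna2 and 11.5% of all tested genes. Dpysl2, also called Crmp2, a cytoskeletal target of Sema3a signals, stood at 14.3, 12.3, 24.2 and 20.96 CPM, and Vegfa, a ligand of both neuropilins, at 111, 122.7, 193 and 149.7 CPM. Both were highest in library 3.

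Rac1 and Adam10 were more abundant than any member. Rac1, a GTPase that plexin and Eph signals act on, stood at 278 ± 28.9 CPM. Adam10, a protease that cleaves ephrins, stood at 239 ± 14.2 CPM, and Flrt3, a membrane ligand of Unc5 receptors, at 116 ± 5.83 CPM. Rgma and Rgmb, ligands of Neo1, stood at 77.1 ± 12.2 and 45.3 ± 7.64 CPM. Other ligands known to act on skin nerves were low. Bdnf stood at 2.22 ± 0.0392, Ntf3 at 2.39 ± 1.20, Gdnf at 2.21 ± 0.814 and Artn at 1.08 ± 0.464 CPM (SD, n = 4).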

How the data were processed

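CAGE libraries were made from total RNA of 4 lesional skins, per the labels' protocols. The authors deposited CPM per tag cluster and library, each cluster with a gene name or none, and per the submitters' processing notes the tools were BWA and HISAT2, with no version given there, and the build mm9. The coordinates fit another build: nearly all of 49029 named entries lay within 1000 bases of their gene in GENCODE M21 on GRCm38, so positions are given on GRCm38. The joining of tags into clusters is described in no source used here. Dividing the deposited CPM by the worth of 1 tag gave whole numbers throughout (tolerance 0.02 tags), so tags were recovered. Totals over all entries were 18179860, 18823630, 17630119 and 17939565 tags for libraries 1 to 4, with clusters listed under several genes counted more than once. Clusters with no gene name took 10.98%, 9.67%, 10.17% and 9.69% of the tags in distinct clusters and entered no test.

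Tags were summed per gene symbol. Of 17819 symbols, 32 had no tag and 753 were set aside because another gene claimed 90% or more of their tags. The floor for detection was 3 tags (0.159 to 0.170 CPM); it covers counting error only, since the tags carry no molecular identifier described in the sources used here. Spread between libraries was tested with limma 3.58.1 (R 4.3.3) on log2(CPM + 1) with TMM scaling (factors 0.989, 0.933, 1.04 and 1.04), by a one-sided upper F test against limma's robust prior, trended by level, of 3.47 degrees of freedom, adjusted by Benjamini-Hochberg over 14730 genes with a mean of at least 1 CPM. The scale understates the range of low genes. Alternatives were, on the recovered tags, a test in edgeR 4.0.16 and the flag for genes of outlying spread in DESeq2 1.42.0. Others were scalings, pseudocounts, filters and cluster rules, and each library left out. The script was tested on simulated data. Pair ratios used an exact sign-flip test.

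Values per library are given for the 3 highest members of each family, members called, members of listed pairs, and members with 2 or more clusters of at least 10% of tags and 1 CPM; Sema3g, Sema4f, Sema6b, Plxna3, Plxnb3, Efna2, Epha3, Epha7 and Ephb1, outside that rule, are given as tags or ranges. Members, lists and pairs were chosen with earlier results of these data known, and 1 listed pair and 2 listed genes are not reported here.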

Additional observations from a re-analysis of the deposited data

Results flagged for a closer look

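Of 145 quantities screened over the 4 libraries, 6 had a single library whose gap to the nearest of the others was wider, relative to the whole range, than Dixon's limit for 4 values. Chance gives about 1 in 20, so 6 is no more than chance gives. Plxnb2 was highest in library 4, at 102.8 CPM, with the others at 95.1 to 95.7 CPM. Sema7a, the only member of its class and so also the summed level of that class, was lowest in library 3, at 28.02 CPM, with the others at 30.6 to 30.8 CPM. The summed class 4 semaphorins were lowest in library 2, at 194 CPM, with the others at 227 to 233 CPM. The log2 ratio of Ephb6 over Ephb3 was highest in library 3, at 1.459, with the others at 1.07 to 1.11. The most used cluster of Efna5 took its largest share in library 3, 52.0% of tags, with the others at 47.6% to 48.2%.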

How the results depend on the processing

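No member was called for its spread under any of the 14 other settings tried, the edgeR test and the DESeq2 flag among them. Apart from DESeq2, whose calls here carry no adjusted p, the smallest adjusted p of any member ran from 0.145 (edgeR on recovered tags) to 0.673 (limma without library 4), and was 0.44 in limma with all libraries. Over all genes the limma test called 34, 0 with at least 10 tags in every library or with libraries 1 and 3 alone, 10 to 112 with a library left out, and 104 without TMM scaling. The edgeR test called 350 and the DESeq2 flag marked 259. At least 3 tags in every library was met by 58 members, and 54 had at least 10.

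The summed level of all members was 2147 CPM with only the most used cluster counted, against 2378 CPM, and 2347 to 2419 CPM with a library left out. With that cluster alone 26 of the pairs lay on 1 side of 1 in every library, against 28, and the 2 that did not were Ntn1 over Ntn4 and Sema4a over Sema4d. Nrp1 over Nrp2 was void without clusters listed under several genes, since no Nrp1 cluster was left. With a minimum share of 20%, 8 members had 2 or more clusters, against 17. At over 500 bases 10 members had distant starts, against 5; this alternative, the one on sample codes and the one with libraries 1 and 3 alone were chosen after seeing the data. Without TMM scaling 3 tested members were highest in library 2, against 7, and 8 members had libraries 1 and 2 both above libraries 3 and 4, against 14. The shares of all genes fell as well, to 6.48% from 24.0% and to 11.5% from 27.9%. The causes were not tested.

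No paired analysis was possible because the labels give 1 group. Depth limits the 5 members under 1 CPM, whose values rest on 5 to 27 tags per library.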
